A study of Mus musculus with 3 samples.

Results

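The genes described here are 9 X-linked regulators of chromatin: Bcor, Phf8, Hdac8, Hdac6, Suv39h1, Ezhip, Rbbp7, Atrx and Phf6. They were chosen as X-linked histone modifiers, readers and corepressors, and each was measured over its gene body plus 5 kb on both sides on the mouse assembly GRCm38.p6, the build called mm10. The 9 genes are members of the 1256 protein-coding and long noncoding genes that the RefSeq table places on chromosome X. Their windows held 554 of 119257 listed single-base sites in MidK, 1190 of 186844 in LowK and 2363 of 411952 in MEF.

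The series is a chromatin immunoprecipitation study with an antibody to LSD1 (Kdm1a), read by allele on chromosome X. MidK were mouse embryonic fibroblasts carrying the vector SeVdp(fKOSMaB), taken at day 20 with 30 nM Shield1. LowK were fibroblasts with the same vector at day 20 and no Shield1. MEF were mouse embryonic fibroblasts at day 0. SeVdp vectors are derived from Sendai virus and stay in the cytoplasm. Shield1 is a small molecule that protects proteins carrying a destabilising domain from degradation. The labels call MidK and LowK reprogramming cells and MEF somatic cells, and do not expand the names MidK and LowK. Sex, strain, passage and the strain behind the variant base were not given in the sources used here, nor was any sorting of the day 20 cells. The vector, the 20 days and the reprogramming are shared by MidK and LowK, so they cannot be told apart from one another against MEF. Each group had 1 library, so no difference has a replicate check and no p-value was computed. Without an input library in these comparisons, a count of reads is coverage and not enrichment.

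LSD1 removes methyl groups from lysine 4 of histone H3 and works in complexes with the histone deacetylases HDAC1 and HDAC2 and the corepressor CoREST. Corepressors such as BCOR do not bind DNA themselves and are brought to genes by transcription factors, while writers, erasers and readers add, remove or bind histone marks. All 9 genes lie on the X chromosome, which is dosage compensated in female cells and is reactivated when female cells reach naive pluripotency.

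The 3 lists held 203350 reads in MidK, 295254 in LowK and 883097 in MEF, with 1.71, 1.58 and 2.14 reads per listed site. Sites with a single read made up 69.7% of the list in MidK, 67.7% in LowK and 47.4% in MEF. The listed reads are LSD1 chromatin and not RNA, so the labelled cell types could not be checked by expression. Over 8 fibroblast marker genes of the X chromosome the windows summed to 51.8 reads per 10000 in MidK, 66.1 in LowK and 87.2 in MEF, and over 8 pluripotency or germline genes to 24.98, 37.8 and 26.7. The windows of all genes together held 3393, 3951 and 3991. Long genes weighed most in the fibroblast sums: Gpc3 and Col4a6 held 2440 and 2450 of the 7704 MEF reads. Against the median ratio of all genes tested, 2 of the 8 fibroblast genes lay above it in MidK over MEF and 6 below. Of the 8 pluripotency or germline genes, 6 lay above it and 2 below. In LowK over MEF, 3 of the fibroblast genes lay above the median ratio and 5 below. Of the pluripotency or germline genes, 7 lay above it there and 1 below. Over 6 blood and immune genes the sums were 16.4, 23.2 and 19.6, and no gene of the 3 lists was at 0 reads in any library. Their part in the values below was not tested. In a bulk library, fewer cells with LSD1 at a gene and less LSD1 per cell cannot be told apart.

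Taken as a set, the 9 windows held 917 reads in MidK, 2047 in LowK and 5219 in MEF, which is 45.1, 69.3 and 59.1 reads per 10000 listed reads. The median level per 10000 reads and 100 kb of window was 6.16 in MidK, 6.25 in LowK and 7.97 in MEF for the 9 genes, beside 4.92, 6.88 and 6.96 for all 1256. Levels below are given on this per-length scale, with exact Poisson 95% intervals on the reads behind them. All intervals cover counting error only, and they are too narrow because a read that spans several listed sites is counted at each of them.

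**Figure D1:**
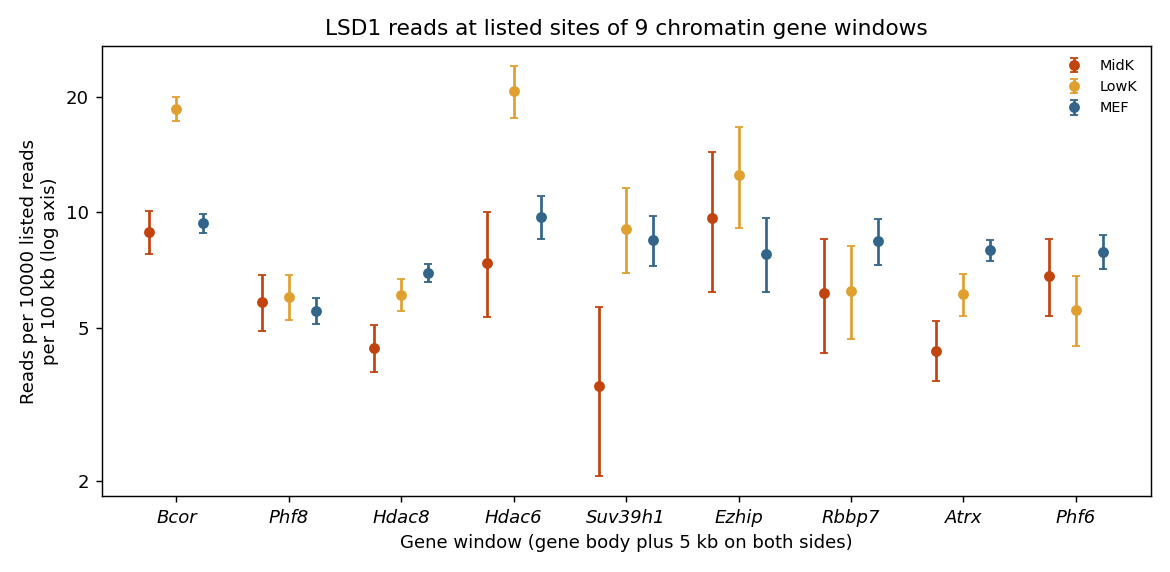
LSD1 reads per 10000 listed reads and 100 kb of gene window (log axis) for the 9 genes in MidK, LowK and MEF, with exact Poisson 95% intervals (1 library per group). The LowK points of Bcor at 18.6 and Hdac6 at 20.6 lie above the intervals of both other libraries, and the MidK point of Suv39h1 at 3.54 is the lowest of the plot.

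The 3 comparisons use the ratio of read shares, divided by the median ratio of all genes tested, so that a ratio of 1 is the median gene. A gene was called when the ratio passed 2-fold in either direction, the Poisson intervals of both libraries lay apart and at least 30 reads were present in 1 of both. None of the 9 genes was called: 0 of 9 in MidK over MEF, where 19.4% of 1080 genes were called, 0 of 9 in LowK over MEF, where 13.6% of 1080 were, and 0 of 9 in MidK over LowK, where 20.6% of 906 were. All 9 had enough reads to enter each comparison. The log2 ratios ran from -0.81 for Suv39h1 to 0.75 for Ezhip in MidK over MEF, with a median of 0.05. In LowK over MEF they ran from -0.59 for Phf6 to 0.996 for Hdac6 with a median of 0.01, and in MidK over LowK from -0.92 for Hdac6 to 0.85 for Phf6 with a median of 0.10. The median over all genes tested is 0 by construction.

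Scaling to the library totals in place of the median gene moved the median of all genes by -0.44 in MidK over MEF, 0.09 in LowK over MEF and -0.56 in MidK over LowK on the log2 scale. On that scale the calls were Suv39h1 lower in MidK over MEF at 0.419, Hdac6 higher in LowK over MEF at 2.12, and Bcor, Hdac6 and Suv39h1 lower in MidK over LowK at 0.478, 0.359 and 0.392. The share of all genes called lower on that scale was 21.3% in MidK over MEF and 29.1% against LowK, and the share called higher in LowK over MEF was 9.54%. The comparisons share libraries and are not independent of each other.

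**Figure D2:**
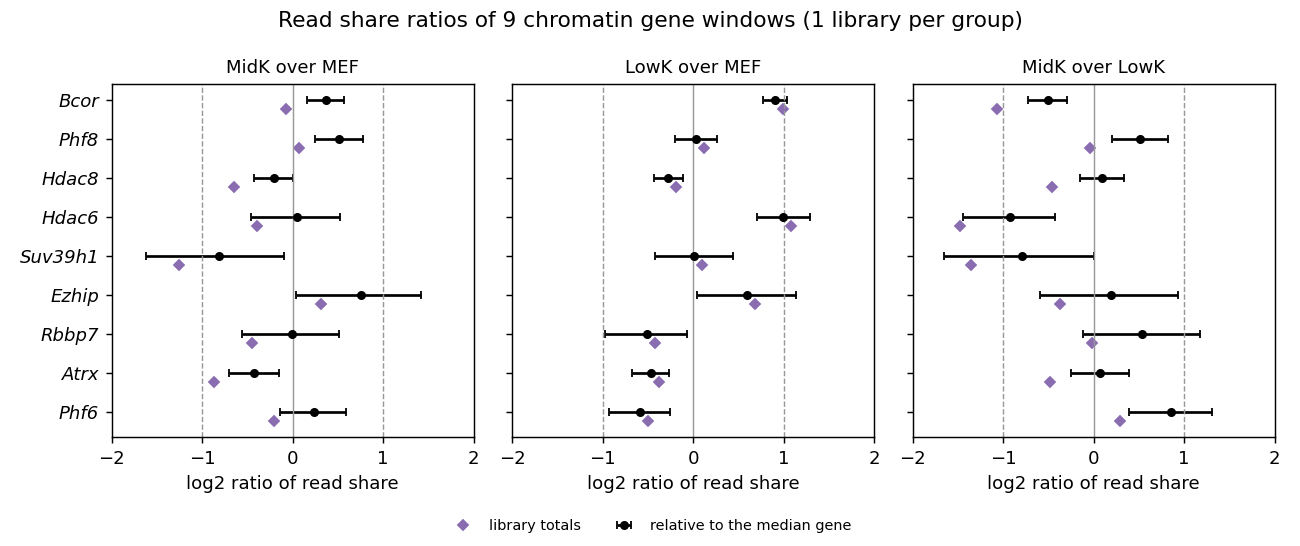
Log2 ratios of read share for the 9 genes in MidK over MEF, LowK over MEF and MidK over LowK, relative to the median gene (black, with 95% counting intervals) and on library totals (diamonds); dashed lines mark 2-fold. The interval of Bcor in LowK over MEF reaches from 0.77 to 1.04 and that of Hdac6 from 0.70 to 1.29, while the other black points of that panel stay between -0.59 and 0.59.

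Bcor (X:12036737 to 12160516, minus strand) encodes the BCL6 corepressor, a subunit of a variant Polycomb repressive complex that ubiquitylates histone H2A. Its window held 242 reads at 120 sites in MidK, 735 at 340 sites in LowK and 1105 at 468 sites in MEF. As levels per length these were 8.90 in MidK, 18.6 in LowK and 9.35 in MEF. LowK stood apart, while MidK and MEF overlapped within their intervals: per 10000 reads the intervals were 10.4 to 13.5 in MidK, 23.1 to 26.8 in LowK and 11.8 to 13.3 in MEF. The ratio of LowK over MEF was 1.87 (1.70 to 2.06), under the 2-fold limit, and MidK over LowK was 0.704 (0.606 to 0.815). MidK over MEF was 1.29 (1.12 to 1.49) relative to the median gene and 0.951 on library totals, so its direction depended on the scaling.

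With the gene body alone Bcor passed the rule in LowK over MEF at 2.05 (1.86 to 2.25), where 10.2% of 817 genes were called higher. At the 21 positions of its window that all 3 libraries list, Bcor had 63 reads in MidK, 86 in LowK and 64 in MEF. No other of the 9 genes had more than 8 such positions. Part of the Bcor body overlaps the long noncoding gene Gm46687 (X:12092486 to 12120142), whose reads cannot be separated from those of Bcor by position. With only the sites that lie in no other gene window, LowK over MEF was 2.03 and was called higher, as were 8.92% of 886 genes. With only the sites of a reliability score of at least 20 it was 2.73 (2.45 to 3.03), where 16.4% of 1014 genes were called higher. Other settings lowered it: LowK over MEF was 1.65 (1.42 to 1.91) with 1 site kept per 300 bp, 1.46 (1.17 to 1.81) with each such site counted once, and 1.205 (0.862 to 1.69) at the positions listed in all 3 libraries.

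The Bcor reads of MidK were concentrated in a short stretch of the window. The most-read 10 kb of its window in MidK, X:12083185 to 12093184, held 100 of its reads, or 41.3% (35.1 to 47.8), in 7.47% of the length. In LowK the same 10 kb held 121 reads or 16.5%, and in MEF 104 reads or 9.41%. Within it, the 500 bp from X:12086923 to 12087422 held 52 reads at 8 sites in MidK, 15 at 5 sites in LowK and 14 at 4 sites in MEF. This is 21.5% of the Bcor reads in MidK, 2.04% in LowK and 1.27% in MEF, and the 52 MidK reads were 17 with the B6 base and 35 with the variant base. At most 10 reads in MidK, 5 in LowK and 4 in MEF lay at a single site. A read that spans several of these close sites is counted at each, so the 52 can rest on far fewer fragments. The same holds for the 21.5% and for the split by allele. The stretch and the 500 bp were chosen as the most-read in MidK, so the MidK share is a description. Without the 10 kb, Bcor in MidK over MEF was 0.838 (0.698 to 0.999), below the median gene. In MidK over LowK it was 0.494 (0.409 to 0.594), past the rule, where 12.1% of 906 genes were called lower. Leaving out a stretch chosen as the MidK maximum lowers the MidK ratios through the choice itself. The other genes kept their own maxima, so the 12.1% is not a like background and no conclusion is drawn from this call. LowK over MEF was 1.73 without it. The Bcor value in MidK over MEF thus fell on the other side of the median gene when its own MidK maximum was left out.

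**Figure D3:**
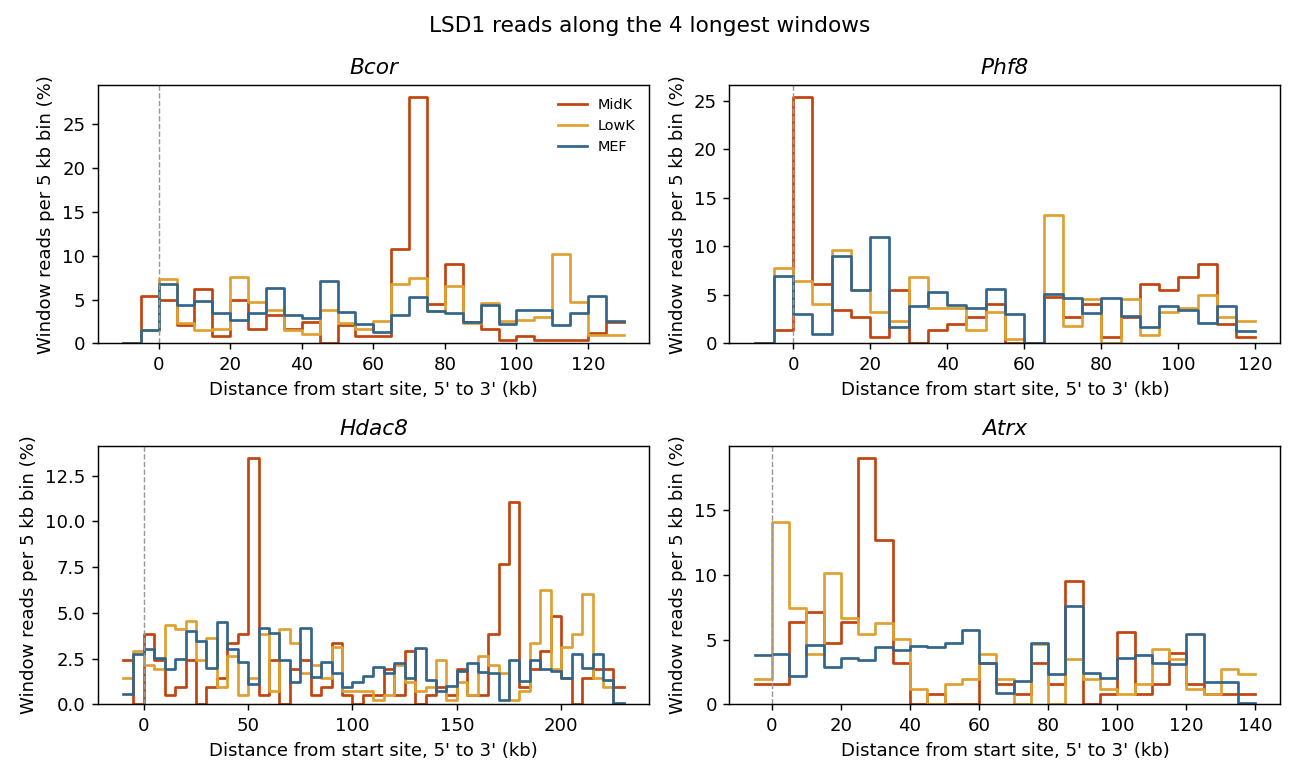
Percent of the reads of each window in 5 kb bins against the distance from the start site in kb, in the direction of transcription, for the 4 long windows of Bcor, Phf8, Hdac8 and Atrx in MidK, LowK and MEF. The highest MidK bin holds 28.1% of the Bcor reads at 70 to 75 kb and 25.3% of the Phf8 reads in the first 5 kb of the gene, while the highest MEF bins of both genes stay at 7.15% and 10.9%.

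Phf8 (X:151520641 to 151633859, plus strand) encodes a histone demethylase that binds trimethylated lysine 4 of histone H3 with its PHD finger and removes methyl groups from other lysines. Its level per length was 5.83 in MidK, 6.02 in LowK and 5.54 in MEF, from 146, 219 and 603 reads. These 3 levels overlap within their intervals. Relative to the median gene MidK over MEF was 1.43 (1.18 to 1.71) and MidK over LowK 1.43 (1.15 to 1.77), but on library totals they were 1.05 and 0.968. LowK over MEF was 1.02 (0.872 to 1.196).

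The most-read 10 kb of Phf8 was not the same stretch in MidK and MEF. The 10 kb that starts just inside the gene, X:151520883 to 151530882, held 46 reads or 31.5% (24.1 to 39.7) in MidK, 18 or 8.22% (4.94 to 12.7) in LowK and 24 or 3.98% (2.57 to 5.86) in MEF. The most-read 10 kb of MEF, X:151532183 to 151542182, held 7 reads in MidK, 19 in LowK and 115 in MEF. Each stretch was chosen as the maximum of a library, so its share in that library is a description only. The 300-base promoter window of Phf8 held no listed site in any library.

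Long windows gave such maxima throughout the chromosome. Over the 136 genes with windows of at least 100 kb, the most-read 10 kb held a median of 19.7% of the reads in MidK (quartiles 14.6 to 24.4), 16.8% in LowK (11.6 to 22.1) and 12.4% in MEF (8.79 to 15.7). The share of a maximum is larger where fewer reads are spread, and MidK has the fewest reads. The values of Bcor, Phf8 and Atrx in MidK, at 41.3%, 31.5% and 32.5%, lay above the upper quartile, and that of Hdac8, at 21.6%, lay within the quartiles.

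Hdac8 and Hdac6 encode lysine deacetylases of the same zinc-dependent class. HDAC8 acts on histones and on the cohesin subunit SMC3, and HDAC6 is mainly cytoplasmic and acts on tubulin. Neither is the deacetylase that forms the LSD1 core complex.

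Hdac8 (X:102284638 to 102505381, minus strand) is the longest of the 9 and lies largely within the span of the long noncoding gene Gm32262. Its window held 208 reads in MidK, 416 in LowK and 1419 in MEF. As levels per length these were 4.43 in MidK, 6.11 in LowK and 6.96 in MEF, with intervals of reads per 10000 that lay apart between MidK and the other libraries. The ratios were 0.865 (0.744 to 1.001) in MidK over MEF, 0.826 (0.738 to 0.922) in LowK over MEF and 1.07 (0.901 to 1.27) in MidK over LowK. On library totals MidK over LowK was 0.726, below 1, so the direction of that comparison depended on the scaling. Relative to the 200 kb around it, the level of the Hdac8 window was 0.501 in MidK, 0.702 in LowK and 0.884 in MEF. The medians over all genes were 0.801 (quartiles 0.490 to 1.17), 0.935 (0.664 to 1.29) and 0.992 (0.781 to 1.21). Hdac8 thus lay below the median but within the quartiles in each library, and Suv39h1 was lower in MidK at 0.322.

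The most-read 10 kb of Hdac8 was a different stretch in each library, and each was chosen as a maximum, so its share in that library is a description. The most-read 10 kb in MidK, X:102326102 to 102336101, held 45 reads in MidK, 12 in LowK and 27 in MEF. The most-read 10 kb in LowK, X:102290511 to 102300510, held 1 read in MidK, 41 in LowK and 67 in MEF. The MEF maximum at X:102467950 to 102477949 held 5 reads in MidK, 23 in LowK and 120 in MEF.

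Hdac6 (X:7930116 to 7948047, minus strand) had the highest level of the 9 in LowK, with an interval that overlaps that of Bcor. Its window held 42 reads in MidK, 170 in LowK and 240 in MEF, and per length the levels were 7.39, 20.6 and 9.73. The LowK interval, 4.92 to 6.69 reads per 10000, lay above those of MidK (1.49 to 2.79) and MEF (2.38 to 3.08), which overlapped. LowK over MEF was 1.99 (1.63 to 2.44), just inside the 2-fold limit, MidK over LowK was 0.528 (0.367 to 0.744) and MidK over MEF was 1.03 (0.725 to 1.44) relative to the median gene and 0.760 on library totals. Other settings moved Hdac6 both ways. With 1 site kept per 300 bp, LowK over MEF was 2.33 (1.69 to 3.21), where 3.5% of genes were called higher, and MidK over LowK was 0.374 (0.204 to 0.646), where 3.71% were called lower. At a reliability of at least 20 LowK over MEF was 2.67, where 16.4% were called higher, and with no minimum of reads it lay at the limit of 2, where 7.46% were. With 1 site per 300 bp counted once, LowK over MEF was 1.43 (0.885 to 2.29). On the gene body alone it was 1.35 (0.991 to 1.81), and MidK over LowK was 0.879 (0.547 to 1.38).

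Most of the LowK reads of the Hdac6 window lay outside the gene. The body held 29 of 42 reads or 69.0% (52.9 to 82.4) in MidK, 66 of 170 or 38.8% (31.5 to 46.6) in LowK and 146 of 240 or 60.8% (54.3 to 67.0) in MEF, for a body that is 64.2% of the window. With the sites that lie in no other gene window, 21 reads remained in MidK, 29 in LowK and 84 in MEF. There LowK over MEF was 1.03 (0.651 to 1.59), and MidK over LowK turned to 1.49 (0.807 to 2.70). The 5 kb before the start site held 10 reads in MidK, 69 in LowK and 51 in MEF, within the span of the neighbouring long noncoding gene Gm39488 or its 5 kb. On the other side, the windows of Eras and Pcsk1n overlap that of Hdac6 and were called higher in LowK over MEF at 3.40 (2.62 to 4.42) and 3.08 (2.38 to 3.99), where 7.31% of genes were. The MidK over LowK ratio was 0.321 for Eras and 0.365 for Pcsk1n, both called lower, where 11.9% of genes were. Eras encodes a Ras-like protein of mouse embryonic stem cells and Pcsk1n an inhibitor of a prohormone convertase.

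**Figure D4:**
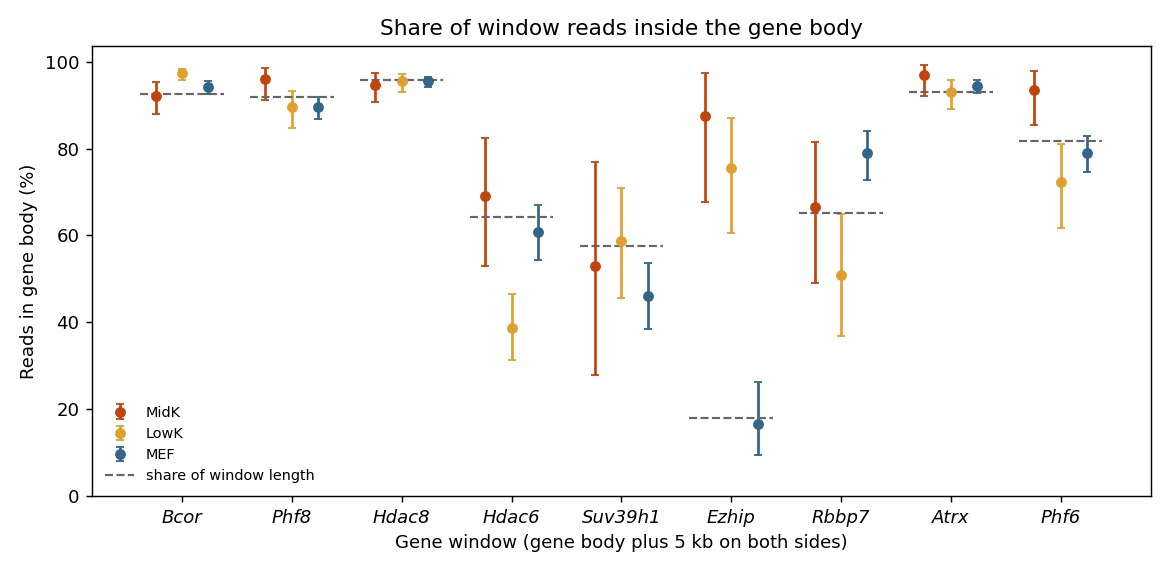
Percent of window reads that lie in the gene body for the 9 genes in MidK, LowK and MEF, with exact Clopper-Pearson 95% intervals, beside the percent of the window length that is gene body. For Ezhip the body held 87.5% of the reads in MidK, 75.6% in LowK and 16.7% in MEF, and for Hdac6 it held 69.0%, 38.8% and 60.8%.

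The promoter of Hdac6 held 14 reads in LowK, beside 1 in MidK and 1 in MEF, and is printed because it is the only promoter window of the 9 genes with at least 10 reads in any library. It is the RefSeq promoter on GRCm38.p6 at chrX:7947840-7948139, minus strand, which runs from 250 bases before the start site to 50 after it, with the listed sites in capitals.
Hdac6 promoter: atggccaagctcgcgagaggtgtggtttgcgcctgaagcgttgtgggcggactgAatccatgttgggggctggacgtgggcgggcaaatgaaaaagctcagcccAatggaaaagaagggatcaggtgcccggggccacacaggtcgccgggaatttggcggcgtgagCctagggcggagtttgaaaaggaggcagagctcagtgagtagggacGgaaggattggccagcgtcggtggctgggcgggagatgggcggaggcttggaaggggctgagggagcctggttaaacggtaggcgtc
Positions are counted from 1 at the 5′ end of the printed window, with the B6 base first and the variant base after the position. The LowK reads were 7 at A55G, of which 6 had the variant base, 3 at C168T, of which 2 did, and 4 at G214C, which all did. The MidK read lay at A105G and the MEF read at C168T, and both had the variant base. Over the 1223 promoter windows of 1046 genes, 1.80% had at least 10 reads in MidK, 6.79% in LowK and 6.54% in MEF. GC content was 62.0% in this window, beside a median of 51.0% over all.

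Suv39h1 (X:8061171 to 8074760, minus strand) encodes a methyltransferase that trimethylates lysine 9 of histone H3 in heterochromatin. It was the member with the fewest MidK reads: 17 reads at 10 sites in MidK, 63 at 41 in LowK and 176 at 81 in MEF. Its level per length was 3.54 in MidK, 9.05 in LowK and 8.45 in MEF. The MidK interval, 0.487 to 1.34 reads per 10000, lay below those of LowK (1.64 to 2.73) and MEF (1.71 to 2.31), while these overlapped. Relative to the median gene the ratio was 0.570 (0.325 to 0.939) in MidK over MEF, 1.01 (0.744 to 1.35) in LowK over MEF and 0.577 (0.316 to 0.998) in MidK over LowK, all inside the 2-fold limit. The window overlaps that of Was, a regulator of actin in blood cells, whose ratios were 1.53 (1.02 to 2.25) in MidK over MEF, 1.70 in LowK over MEF and 0.920 for MidK over LowK. With the sites that lie in no other gene window, 10 reads in MidK stood beside 56 in LowK and 131 in MEF, and Suv39h1 was called lower against MEF at 0.452 (0.212 to 0.857) and against LowK at 0.367 (0.167 to 0.727), where 9.82% and 11.0% of genes were. Some other settings gave intervals that include 1. On the gene body alone MidK over MEF was 0.706 (0.312 to 1.41), and with 1 site kept per 300 bp 0.844 (0.414 to 1.58). MidK over LowK was 0.486 (0.206 to 1.03) and 0.755 (0.351 to 1.52) in these settings.

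The table of promoters gives Suv39h1 a pair of start sites. The window of the inner one, chrX:8074312-8074611 on the minus strand, is shown because MidK and LowK both list its site A193G and MEF lists none there.
Suv39h1 inner promoter: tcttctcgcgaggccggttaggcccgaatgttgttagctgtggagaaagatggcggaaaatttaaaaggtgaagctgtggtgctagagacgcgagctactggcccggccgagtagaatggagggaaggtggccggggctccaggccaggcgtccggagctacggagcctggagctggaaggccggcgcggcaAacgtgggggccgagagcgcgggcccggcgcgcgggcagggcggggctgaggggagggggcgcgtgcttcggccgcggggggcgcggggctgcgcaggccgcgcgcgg
At A193G, 58 bases before the start site, MidK had 2 reads with the B6 base and 2 with the variant base, and LowK had 4 with the variant base. The 4 MidK reads at this site are part of the 17 of its whole Suv39h1 window. The outer promoter held 1 MEF read, at T87A, and none in MidK and LowK.

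Ezhip and Rbbp7 bear on Polycomb repressive complex 2, which methylates lysine 27 of histone H3. EZHIP is an inhibitor of the complex that is normally found in germ cells, and RBBP7 is a histone-binding subunit of the complex and of several deacetylase complexes.

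Ezhip (X:6081218 to 6083420, minus strand) is the shortest of the 9 genes and lies within the long noncoding gene Gm26618 (X:6022086 to 6092556). Its window held 24 reads in MidK, 45 in LowK and 84 in MEF, and per length the levels were 9.67, 12.5 and 7.79. The intervals of MidK overlapped with both others, as did those of LowK and MEF. The ratios were 1.69 (1.02 to 2.68) in MidK over MEF, 1.51 (1.03 to 2.19) in LowK over MEF and 1.14 (0.664 to 1.91) in MidK over LowK, and the last was 0.774 on library totals.

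Within the window, most reads of MidK and LowK lay in the gene body, while the share of MEF reads there was close to the body's share of the length. The body held 21 of 24 reads in MidK, 34 of 45 in LowK and 14 of 84 in MEF, that is 87.5% (67.6 to 97.3), 75.6% (60.5 to 87.1) and 16.7% (9.42 to 26.4) for a body that is 18.1% of the window. Counted on the body alone, Ezhip passed the rule in LowK over MEF at 7.24 (3.78 to 14.6), where 10.2% of 817 genes were called higher. MidK over MEF on the body was 9.54 (4.63 to 20.3), with under 30 reads in both libraries and so outside the rule. Over the whole window at a reliability of at least 20, MidK over MEF was 3.41 (1.90 to 5.81) from 18 reads in MidK and 66 in MEF, and was called higher, where 16.6% of 1011 genes were. At the same setting LowK over MEF turned to 0.948 (0.502 to 1.68). With 1 site kept per 300 bp the whole-window ratios were 1.07 (0.453 to 2.24) in MidK over MEF and 1.30 (0.718 to 2.30) in LowK over MEF, and with each such site counted once LowK over MEF was 0.870 (0.325 to 2.13). The body reads rest on few fragments: MidK had 8 listed sites, LowK 10 and MEF 7, and with 1 site kept per 300 bp they came to 6 reads at 3 sites in MidK, 16 at 4 in LowK and 6 at 3 in MEF. At most 5 reads in MidK, 7 in LowK and 3 in MEF lay at a single site. The B6 base was read 7 times in MidK, 14 times in LowK and 0 times in MEF, against 14, 20 and 14 reads with the variant base.

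Of the genes of at most 5 kb with at least 20 window reads, a body share of at least 75% was seen in 5 of 84 in MidK, 4 of 225 in LowK and 0 of 304 in MEF. Ezhip is among those counted in MidK and LowK, and the limit of 75% was chosen after its values were seen. The median body share of these short genes was 13.9% in MidK, 24.5% in LowK and 16.4% in MEF. The window of Gm26618 as a whole stayed near the median gene, with ratios of 1.25 (0.994 to 1.55) in MidK over MEF and 1.13 in LowK over MEF. The promoter window of Ezhip held 1 MidK read at T84C and 1 LowK read at T122C, both with the variant base.

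Rbbp7 (X:162760372 to 162779090, plus strand) had levels per length of 6.16 in MidK, 6.25 in LowK and 8.40 in MEF, from 36, 53 and 213 reads. These levels overlap within their intervals. The ratios were 0.997 (0.680 to 1.42) in MidK over MEF, 0.701 (0.509 to 0.951) in LowK over MEF and 1.45 (0.924 to 2.26) in MidK over LowK, which was 0.986 on library totals. The body held 24 reads in MidK, 27 in LowK and 168 in MEF, and on the body alone LowK over MEF was 0.479 (0.306 to 0.722) and was called lower, where 6.61% of genes were. With the sites that lie in no other gene window it was 0.803 (0.557 to 1.14), and with 1 site per 300 bp counted once 0.822 (0.426 to 1.52). The end of the gene overlaps Txlng (X:162778917 to 162829454), whose ratio was 1.68 (1.35 to 2.07) in MidK over MEF and 0.906 in LowK over MEF.

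Rbbp7 was the only member with a promoter site that all 3 libraries list, 1 of 75 such sites over the 1223 promoter windows. Its promoter is printed for this site, from chrX:162760122-162760421 on the plus strand of GRCm38.p6 (RefSeq).
Rbbp7 promoter: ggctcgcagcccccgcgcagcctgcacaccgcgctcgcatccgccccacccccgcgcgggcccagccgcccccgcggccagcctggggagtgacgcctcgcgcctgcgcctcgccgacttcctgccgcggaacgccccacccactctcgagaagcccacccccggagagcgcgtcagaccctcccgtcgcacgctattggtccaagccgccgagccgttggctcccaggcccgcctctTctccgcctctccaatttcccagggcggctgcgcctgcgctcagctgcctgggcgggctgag
The site is T239C, 12 bases before the start site. MidK had 1 read with the B6 base and 2 with the variant base, and LowK and MEF each had 2 with the variant base. GC content of this window was 75.7%. Over all promoter windows 18.8% held a listed read in MidK, 39.1% in LowK and 46.1% in MEF.

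Atrx (X:105797615 to 105929372, minus strand) encodes a chromatin remodeller that deposits the histone variant H3.3 at heterochromatin and telomeres with its partner DAXX. Its level per length was 4.37 in MidK, 6.12 in LowK and 7.97 in MEF, from 126, 256 and 998 reads. The intervals of reads per 10000 lay apart in all pairs, at 5.16 to 7.38 in MidK, 7.64 to 9.80 in LowK and 10.6 to 12.02 in MEF. Relative to the median gene the ratio was 0.745 (0.614 to 0.897) in MidK over MEF and 0.722 (0.627 to 0.829) in LowK over MEF, inside the 2-fold limit. MidK over LowK was 1.05 (0.843 to 1.31), and 0.715 on library totals.

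No MidK read lay near the Atrx start site. Within 2 kb of the start site lay 0 of 126 reads in MidK, which leaves a share of up to 2.89% by the exact interval, 11 of 256 or 4.30% (2.16 to 7.56) in LowK and 27 of 998 or 2.71% (1.79 to 3.91) in MEF. The intervals of the 3 libraries overlap. The first 5 kb of the gene held 2 reads in MidK, 36 in LowK and 39 in MEF, and the most-read 10 kb of LowK, X:105918995 to 105928994, held 10 reads or 7.94% in MidK, 56 or 21.9% in LowK and 62 or 6.21% in MEF. In MidK the most-read 10 kb was X:105894427 to 105904426, with 41 reads or 32.5% in MidK, 34 or 13.3% in LowK and 78 or 7.82% in MEF. The MEF maximum, X:105869740 to 105879739, held 1 read in MidK, 9 in LowK and 126 in MEF. Each of these stretches was chosen as the maximum of a library, so that library's share in it is a description only. Of the 94 MidK sites of Atrx, 26.6% were also listed in MEF.

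Phf6 (X:52912214 to 52956961) encodes a nuclear protein with a pair of extended PHD domains that is mutated in human leukaemia and in an X-linked intellectual disability syndrome. Its level per length was 6.83 in MidK, 5.57 in LowK and 7.88 in MEF, from 76, 90 and 381 reads. LowK over MEF was 0.665 (0.523 to 0.839) and MidK over LowK 1.81 (1.31 to 2.48), the largest MidK over LowK value of the 9 genes. MidK over MEF was 1.18 (0.908 to 1.51), and 0.866 on library totals. The body held 93.4% (85.3 to 97.8) of the reads in MidK, 72.2% (61.8 to 81.1) in LowK and 79.0% (74.6 to 83.0) in MEF. On the body alone MidK over LowK was 2.18 (1.54 to 3.11) and was called higher, where 7.74% of 607 genes were. At a reliability of at least 20 the whole window was called higher too, at 2.42 (1.40 to 4.12), where 18% of 628 genes were. Other settings lowered MidK over LowK for Phf6 to intervals that include 1: it was 1.23 (0.891 to 1.68) on library totals, 1.27 with 1 site kept per 300 bp (lower bound 0.792) and 1.17 (0.647 to 2.07) with each such site counted once.

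Reads were also compared by allele. Of the reads in the 9 windows, 183 of 917 or 20.0% had the B6 base in MidK, 230 of 2047 or 11.2% in LowK and 757 of 5219 or 14.5% in MEF, beside 19.3%, 10.3% and 14.6% over all genes. A site is listed only if it has a variant read, which pushes these shares down to a degree that depends on depth. Among the 9 genes, Phf8 and Phf6 had intervals in MidK that lay above those of both other libraries. The share over all genes was also highest in MidK. How many of all genes have intervals apart in this way was not counted, so this is not shown to be particular to these genes. For Phf8 the B6 base made up 28.8% (21.6 to 36.8) of the reads in MidK, 10.0% (6.40 to 14.8) in LowK and 11.6% (9.16 to 14.4) in MEF. For Phf6 it made up 28.9% (19.1 to 40.5) in MidK, 6.67% (2.49 to 13.9) in LowK and 11.3% (8.29 to 14.9) in MEF.

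In Hdac8 and Atrx the LowK share lay below the MEF share by interval. For Hdac8 the B6 base made up 15.9% (11.2 to 21.6) in MidK, 6.73% (4.52 to 9.58) in LowK and 15.4% (13.6 to 17.4) in MEF. For Atrx it made up 12.7% (7.44 to 19.8) in MidK, 7.03% (4.22 to 10.9) in LowK and 15.2% (13.1 to 17.6) in MEF. Over the whole chromosome the share was 18.9% in MidK, 9.85% in LowK and 14.2% in MEF, so LowK lay below MEF there too. The number of all genes with LowK below MEF by interval was not counted either. Bcor was closer among its libraries, with 20.2% (15.4 to 25.9) in MidK, 14.7% (12.2 to 17.5) in LowK and 15.3% (13.2 to 17.6) in MEF.

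**Figure D5:**
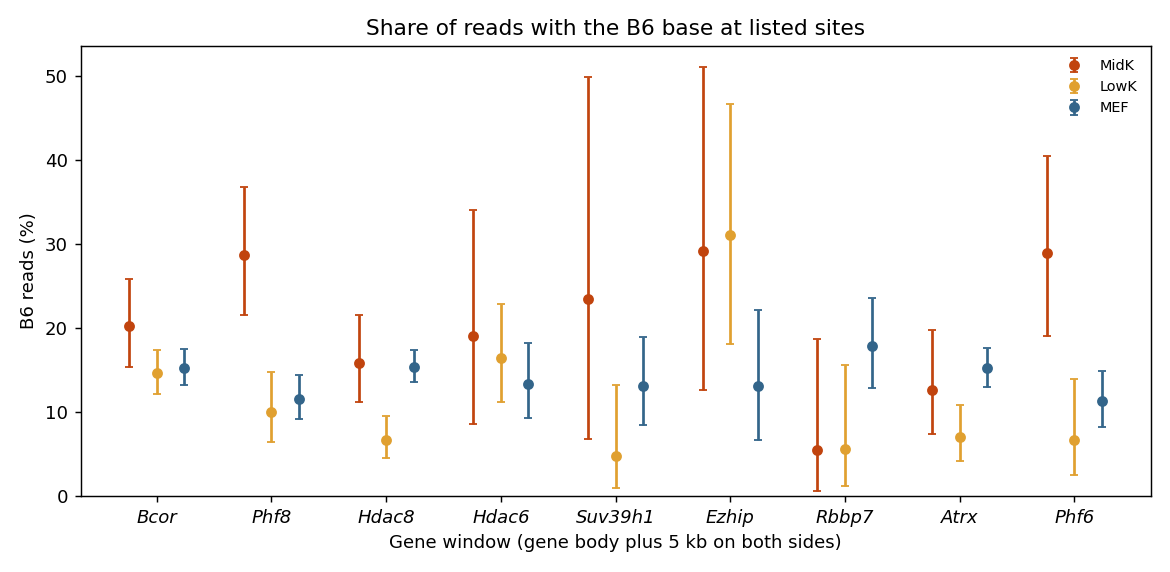
Percent of reads with the B6 base in the windows of the 9 genes in MidK, LowK and MEF, with exact Clopper-Pearson 95% intervals. In MidK, Phf8 at 28.8% and Phf6 at 28.9% lie above their LowK and MEF intervals. The shares over all genes, which are not drawn, were 19.3% in MidK, 10.3% in LowK and 14.6% in MEF.

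A stricter measure took sites of up to 20 reads where both alleles had 2 reads or more, 1 per 300 bp, and asked at how many untied sites of at least 5 reads the variant base had the majority. Over the 9 windows this was 1 of 14 sites or 7.14% (0.181 to 33.9) in MidK, 10 of 22 or 45.5% (24.4 to 67.8) in LowK and 33 of 66 or 50% (37.4 to 62.6) in MEF. Over all genes it was 24.3% of 1034 sites in MidK, 47.2% of 756 in LowK and 47.5% of 4757 in MEF. The interval of the 9 genes in MidK includes the value of all genes, so a difference from the rest of the chromosome was not detectable at this depth. The MidK sites came from 4 genes: Bcor had 6, of which 1 had a variant majority, Phf8 and Hdac8 had 3 each and Phf6 had 2, with none. In LowK the Bcor sites numbered 10, of which 5 had a variant majority, and in MEF 16, of which 10 did.

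The share of sites common to a pair of lists was larger by value in the 9 windows than over all genes, a difference that was not tested. Of the 554 MidK sites, 144 or 26.0% (22.4 to 29.9) were also listed in MEF, which is 6.09% of the MEF sites, beside 18.9% of the MidK sites over all genes. Of the 1190 LowK sites, 323 or 27.1% (24.6 to 29.8) were also in MEF, which is 13.7% of the MEF sites, beside 22.4% over all genes. Of the MidK sites, 97 or 17.5% (14.4 to 20.9) were also in LowK, which is 8.15% of the LowK sites, beside 11.3% over all genes. Bcor alone gave 40 of these 97. Phf8 at 10.7%, Phf6 at 7.14% and Hdac6 at 4% lay below the all-gene share, and the other members lay above it. With sites of at least 2 reads the shares were lower: 15.7% (10.3 to 22.4) of MidK sites in MEF, 17.4% (14.0 to 21.3) of LowK sites in MEF and 15.7% of MidK sites in LowK, beside 11.2%, 14.6% and 8.28% over all genes. At that setting the intervals of both shares in MEF include the all-gene value, so the members could not be told from all genes in those shares. The interval of the MidK sites in LowK, 10.3 to 22.4, lay above the all-gene value of 8.28%. Sites close together share reads, so these intervals are too narrow as well. Shares of MidK sites also in MEF ran from 14.3% for Phf8 through 35.8% for Bcor to 50% for Rbbp7, and Hdac6 had 39.7% of its LowK sites in MEF. In the Ezhip window 1 of 18 LowK sites was also listed in MEF.

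Reads near start sites were counted for the 8 members in the promoter table, which does not hold Phf6. Within 2 kb of the start sites lay 9.39% (7.51 to 11.6) of the window reads in MidK, 9.56% (8.29 to 10.9) in LowK and 5.31% (4.70 to 5.98) in MEF, for 4.43% of the window length. Over all genes the shares were 10.7%, 14.4% and 8.27%, for 7.57% of the length. The start regions of short genes are a larger part of their windows. They made up 32.8% of the window length for Ezhip, 13.9% for Rbbp7, 17.0% for Suv39h1 and 14.3% for Hdac6. For the long genes this was 1.73% for Hdac8, 2.99% for Bcor and 3.25% for Phf8. Ezhip had 91.7%, 82.2% and 23.8% of its reads there, Rbbp7 33.3%, 45.3% and 18.8%, and Suv39h1 23.5%, 33.3% and 9.66%, in MidK, LowK and MEF. In MEF the shares of Ezhip and Suv39h1 lay below their part of the length. Hdac6 had 26.2% in MidK, 25.9% in LowK and 17.1% in MEF. The long genes had lower shares: Hdac8 stayed at 1.92% in MidK, 2.16% in LowK and 2.68% in MEF, and Bcor had 9.09% in MidK, 3.13% in LowK and 4.80% in MEF. Phf8 had 2.74%, 8.22% and 3.48%. Much of this contrast between short and long genes follows the window length. Relative to the 200 kb around each window, the 9 genes had a median level of 0.655 in MidK, 0.708 in LowK and 0.992 in MEF, beside 0.801, 0.935 and 0.992 for all genes.

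Of 26 other X-linked chromatin genes, 5 were called higher and 1 lower in MidK over MEF, where 9.63% and 9.72% of genes were. In LowK over MEF 2 were called higher and 0 lower, where 7.31% and 6.3% of genes were, and in MidK over LowK 3 of 25 tested were called higher and 1 lower, where 8.72% and 11.9% were. Taf1, a subunit of the general transcription factor TFIID, had 188 reads in MidK, 185 in LowK and 473 in MEF, and was called higher in MidK against MEF at 2.35 (1.97 to 2.78) and against LowK at 2.17. Usp51, a deubiquitinase of histone H2A, had 38, 17 and 82 reads and was called higher in the same comparisons at 2.73 and 4.78. Zfp711, a zinc finger protein that works with PHF8 in human cells, had 71, 45 and 206 reads and was called higher in both at 2.03 and 3.37. Its partner Phf8 was not called in any of the 3.

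Nap1l3, of the nucleosome assembly protein family, had 37 reads in MidK, 49 in LowK and 65 in MEF, and was called higher in MidK over MEF at 3.36 and in LowK over MEF at 2.12. Ube2a, an enzyme that ubiquitylates histone H2B, had 47, 104 and 120 reads and was called higher in both at 2.31 and 2.44. Zbtb33, which encodes the methyl-CpG binding corepressor Kaiso, had 8 reads in MidK, 55 in LowK and 114 in MEF, and was called lower in MidK against MEF at 0.414 (0.175 to 0.844) and against LowK at 0.311. On library totals the counts of the 26 genes called higher and lower were 2 and 3 in MidK over MEF, 3 and 0 in LowK over MEF and 2 and 5 in MidK over LowK.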

How the data were processed

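LSD1 chromatin reads were taken from 3 lists of chromosome X variants, 1 per library, and groups were taken from the sample titles. The alignment used BWA and the mm10 build, per the submitters' processing notes. Variant calling used bcftools mpileup, per the series' design text. Tool versions, filters and the handling of duplicates were not given in the sources used here. For each position the deposited counts hold the reads carrying the B6 base and those carrying the variant base, per the file headers. A deposited reliability score, so headed in the files, rates each call and enters 1 alternative.

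Insertions and deletions were left out: they made up 5.56% of the MidK, 6.13% of the LowK and 6.97% of the MEF list. Every listed site has at least 1 variant read. Genes came from RefSeq (GRCm38.p6), whose table used here gives no exons; start sites and sequences came from its promoter table. All 1733 listed reference bases in the promoter windows matched the RefSeq bases. Reads were summed over each gene body plus 5 kb on both sides, for all 1256 genes. Calls needed 2-fold, Poisson 95% intervals apart and 30 reads, and no p-value was computed. Intervals are exact Poisson, exact conditional binomial (ratios) or Clopper-Pearson (shares), with Python 3.11.15, scipy 1.17.1 and pandas 2.3.3. Ratios were tested on simulated independent Poisson counts with known changes. Those counts hold no read that is counted at several sites, so they do not measure that source of error in the calls. The text names all 9 members, called genes of 26 other chromatin genes and genes whose windows overlap a member. A likeness search was to follow for called members, and there were none. The members and lists were chosen with earlier results of these data known.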

Additional observations from a re-analysis of the deposited data

How the results depend on the processing

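Over 288 values of the 9 genes under the alternatives, 250 kept their direction, 64 left the interval reported above and 20 were called. In the order MidK over MEF, LowK over MEF and MidK over LowK, the counts of members called, 0, 0 and 0 as reported, were 1, 1 and 3 on library totals and 1, 2 and 1 at a reliability of at least 20 (Ezhip 3.41; Bcor 2.73 and Hdac6 2.67; Phf6 2.42). With sites in no other gene window they were 1, 1 and 1. With the gene body only they were 3 in LowK over MEF and 1 in MidK over LowK. Keeping 1 site per 300 bp, Hdac6 was the 1 call in LowK over MEF (2.33) and the 1 in MidK over LowK (0.374). With no minimum of reads, Hdac6 was the 1 call in LowK over MEF. Without the most-read MidK stretch of Bcor, which was chosen after seeing the data, Bcor was the 1 call in MidK over LowK. That choice itself lowers the MidK ratios of Bcor. All genes called numbered 209, 147 and 187 as reported, 57, 47 and 43 when 1 site was kept per 300 bp, 0, 1 and 2 when such a site counted once whatever its depth, and 5, 3 and 4 at sites listed in all 3 libraries. They were 323 and 289 against MEF at a reliability of at least 20 and 288 in MidK over LowK on library totals. At sites listed in all 3 libraries 9 of 21 member values kept their direction. The cause of these shifts was not tested.

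With at least 1 read of each allele, 65.1% of the MEF sites of the 9 genes had a variant majority. The share of reads near start sites was 6.93% in MidK and 6.84% in LowK with 1 site per 300 bp counted once, and within 1 kb, a distance chosen after seeing the data, 6.42% in MidK, 5.37% in LowK and 2.23% in MEF. With at least 2 reads, 15.7% of the MidK and 17.4% of the LowK sites were also in MEF. No paired analysis was possible because each group has 1 library and no result comes from a test. Depth limits the short genes most: Suv39h1 had 17 and Ezhip 24 reads in MidK.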
